A study of Homo sapiens with 8 samples.

Results

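The SLC1 genes encode sodium-coupled carriers of acidic and neutral amino acids. The family was taken by name and comprises SLC1A1, SLC1A2, SLC1A3, SLC1A4, SLC1A5, SLC1A6 and SLC1A7. All 7 symbols were found among the 43682 in the RNA tables. RNA was sequenced from UM-RC-2, an established line of clear cell renal cell carcinoma with a missense mutation of VHL per the labels. VHL is the tumour suppressor that marks the alpha subunits of hypoxia-inducible factors (HIF) for degradation. The 2 VEC libraries came from cells that stably expressed a construct named VEC, and the 2 VHL libraries from cells that stably expressed VHL. Both constructs were brought in by lentivirus, and both kinds of cells were selected in blasticidin at 10 µg/ml and grown in DMEM with serum. Whether the cells were pools or clones, and whether the replicates were separate cultures, is not given in the sources used here. The p-values therefore cover no more than the spread between these libraries, which the fit estimated largely across genes together.

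SLC1A1 (EAAT3), SLC1A2 (EAAT2), SLC1A3 (EAAT1), SLC1A6 (EAAT4) and SLC1A7 (EAAT5) are the excitatory amino acid transporters. They drive glutamate and aspartate into the cell with sodium and protons, against export of potassium. SLC1A4 (ASCT1) and SLC1A5 (ASCT2) are sodium-dependent exchangers of alanine, serine, cysteine and, for SLC1A5, glutamine. In the kidney, SLC1A1 sits at the luminal side of the proximal tubule and reclaims glutamate and aspartate from the filtrate, and its loss causes dicarboxylic aminoaciduria. SLC1A2 and SLC1A3 are best known from astrocytes, SLC1A6 from cerebellar Purkinje cells and SLC1A7 from the retina.

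SLC1A1 was the member called lower in VHL, and its promoter is shown for that reason. HIF binds DNA through a short core, but whether it acts on SLC1A1 was not tested. The core was searched as ACGTG and as GCGTG on both strands, in the 250 bases before each transcription start that RefSeq gives on build GRCh38.p14. The E-box CACGTG, which overlaps ACGTG, and the core TGACNNNGC of the antioxidant response element were searched as well. Capitals mark GCGTG or its reverse complement. The first sequence lies at chr9:4490218-4490467 on the plus strand and the second at chr19:46788595-46788844 on the minus strand. The second belongs to SLC1A5, the member with the most reads, and is shown for contrast.
SLC1A1: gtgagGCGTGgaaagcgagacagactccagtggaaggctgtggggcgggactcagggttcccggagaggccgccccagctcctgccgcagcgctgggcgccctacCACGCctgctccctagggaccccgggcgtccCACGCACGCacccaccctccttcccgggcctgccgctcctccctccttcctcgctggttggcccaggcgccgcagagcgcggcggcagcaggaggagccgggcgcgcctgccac
SLC1A5: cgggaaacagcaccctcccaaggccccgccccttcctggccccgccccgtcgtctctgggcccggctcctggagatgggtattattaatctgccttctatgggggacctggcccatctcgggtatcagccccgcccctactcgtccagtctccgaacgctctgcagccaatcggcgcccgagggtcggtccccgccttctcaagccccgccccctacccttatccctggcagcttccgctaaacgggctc

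The SLC1A1 window held GCGTG 4 times and ACGTG at no position. Its matches began 245, 145, 114 and 110 bases before the start, and the last 2 share 1 base. The SLC1A5 window shown held no match to either form, and its other starts had 2 matches and 0. The starts of SLC1A4 had 3 matches and 1, those of SLC1A6 had 2 and 0, the start of SLC1A7 had 2, and those of SLC1A3 had 0, 1 and 1. SLC1A2 had no entry. Of all 35116 starts, 43.2% held at least 1 match to either form and 3.22% held at least 4. ACGTG was present at 18.5% of starts and GCGTG at 32.2%. G and C made up 74.4% of the SLC1A1 window and 66.8% of that of SLC1A5. The E-box was found at 1 start of SLC1A5 and at that of SLC1A7 (6.34% of all starts). An E-box holds ACGTG on both strands and so counted as 2 matches, also in the 3.22% above. The 2 matches at each of those starts of SLC1A5 and SLC1A7 were thus 1 E-box. The antioxidant core was found at 1 start each of SLC1A3 and SLC1A5 (10.9%). All matches are of letters and are not sites of binding. The shares over all starts were not matched for content of G and C.

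The libraries held between 16230291 and 50027348 counts, and those of replicate 2 were the deeper ones. The labels give total RNA for both replicate 1 libraries and polyA RNA for both replicate 2 libraries, and the names of the alignments differ in form in the same way. Pseudogenes took 1.37% and 2.07% of the counts in replicate 1 but 31.3% and 24.9% in replicate 2. VHL was therefore compared with VEC within each replicate number, and the fit across all genes carried the replicate number as a block. VHL itself was higher in the VHL library of each pair (37.1 against 146 CPM in replicate 1, and 88.9 against 151 in replicate 2), although counts per symbol cannot separate the introduced transcript from that of the line. CPM are counts per 1000000 counts of the library, with library sizes scaled by the trimmed mean of M values (TMM).

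SLC1A1 was about 5-fold lower in VHL cells. Replicate 1 gave 1296 counts for the VEC library and 196 for the VHL library, which are 56.0 and 10.5 CPM. Replicate 2 gave 1169 and 220 counts, which are 25.6 and 5.39 CPM. Both VHL libraries were thus below both VEC libraries, and the groups did not overlap. Of the 24417 genes tested, 3.39% lay in that order. The gene was also lower in replicate 2 than in replicate 1 of the same group, so its level is read here within pairs. The VEC library was 5.33-fold above the VHL library in replicate 1 (95% interval 4.58 to 6.22) and 4.76-fold above in replicate 2 (4.12 to 5.52). These intervals are exact binomial ones and cover counting error only. The log2 changes, -2.41 and -2.25, differed by 0.16 between the pairs (interval -0.14 to 0.46, counting error only).

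**Figure D1:**
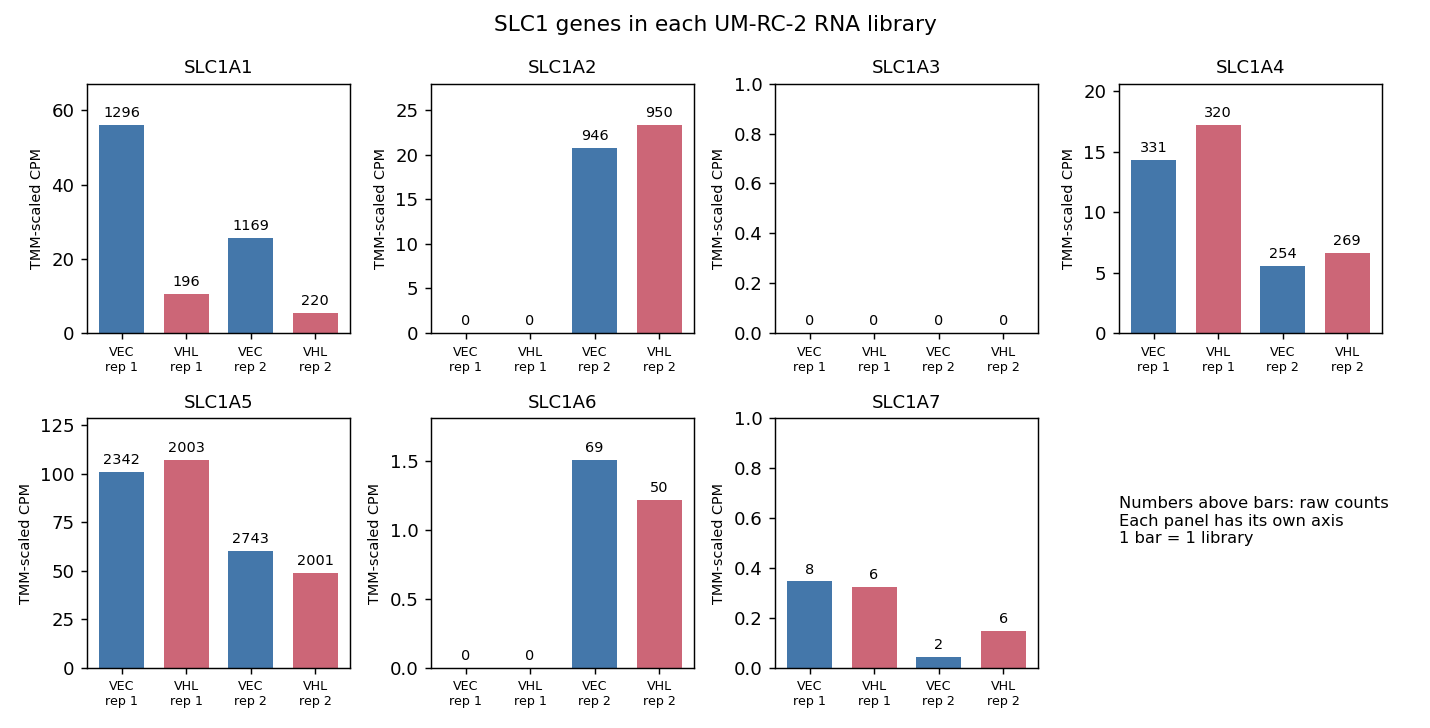
TMM-scaled CPM (vertical axis, 1 scale per panel) of the 7 SLC1 genes in the 4 libraries, with raw counts above the bars and VEC in blue and VHL in red. SLC1A1 was lower in VHL within both pairs (1296 against 196 and 1169 against 220 counts), while SLC1A2 and SLC1A6 had reads in replicate 2 alone and SLC1A3 had none.

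In the fit across all genes, SLC1A1 changed by -2.33 ± 0.25 on the log2 scale (SE, n = 2 per group, 95% interval -2.82 to -1.84), or 5.03-fold. Its adjusted p was 1.35e-17 (edgeR quasi-likelihood test with replicate block, Benjamini-Hochberg adjustment) and it ranked 14 by p-value. That p and the interval rest on a spread shared across genes, not on the spread of SLC1A1 alone. The 6 members that passed the filter on low counts gave 1 call, SLC1A1, where the fit called 3.10% of all genes tested and 2.35% as lower in VHL. SLC1A3 did not pass the filter. With group as the only term the change was -2.36 ± 0.91 and not called (adjusted p = 0.999991, edgeR), and no gene of the table was. An exact permutation test of 2 against 2 libraries cannot go below p = 0.333. In bulk RNA, less transcript per cell cannot be told apart from fewer cells that express the gene.

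The fall of SLC1A1 was among the larger ones in both pairs. Of the other genes tested, 142 fell at least as far in replicate 1 and 72 in replicate 2, and 32 did so in both. Among the 8642 genes with at least 200 counts in each VEC library, 15 others did so in both. In VEC, SLC1A1 had more reads than 80% of protein-coding genes in replicate 1 and 68.4% in replicate 2. In VHL these shares were 57.1% and 48.3%. The textbook HIF targets, given here as a check of the labels, also fell, with log2 changes of -5.45 (CA9, a carbonic anhydrase), -1.95 (NDRG1), -1.95 (EGLN3, a HIF prolyl hydroxylase), -1.10 (SLC2A1, a glucose transporter) and -0.99 (VEGFA). All 5 were called with the block (largest adjusted p = 0.000566, edgeR) and not without it (adjusted p = 0.999991). SLC1A1 thus fell further than every one of them but CA9, a comparison of estimates that was not tested.

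**Figure D2:**
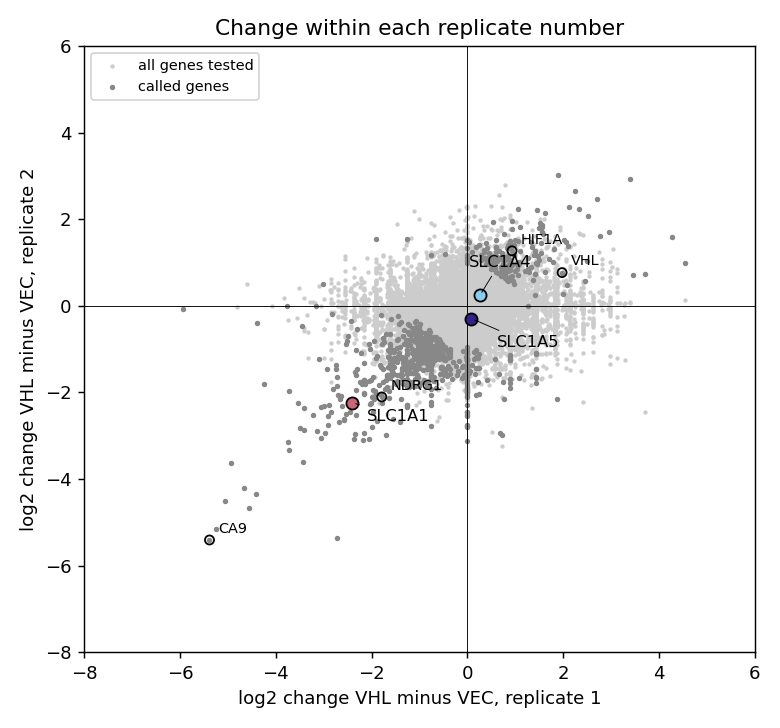
Log2 change of VHL minus VEC in replicate 1 (horizontal) and replicate 2 (vertical) for the 24417 genes tested, with genes called in the blocked fit in dark grey. SLC1A1 lies at -2.41 and -2.24 (prior count of 2), and SLC1A4 and SLC1A5 lie near 0 on both axes.

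The genes nearest to SLC1A1 in the plane of its pair changes were sought among 8398 protein-coding genes with at least 200 counts in each VEC library. They were RORA, a nuclear receptor (distance 0.26 in log2 units), RAB17, a small GTPase of epithelial traffic (0.28), TMEM141 (0.29), NRN1, a surface protein known from neurons (0.30), and DOC2A, a calcium-binding protein of exocytosis (0.41). RORA, the closest, went from 2150 to 274 counts and from 2847 to 573. This is a likeness over 2 pairs of libraries, in the contrast that was used to find it.

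SLC1A5, the glutamine exchanger, took the most reads of the family in every library. The VEC and VHL libraries of replicate 1 gave 2342 and 2003 counts (101 and 107 CPM). Those of replicate 2 gave 2743 and 2001 counts (60.1 and 49.0 CPM). The pair changes were 0.09 (interval -0.00 to 0.17, counting error only) and -0.30 (-0.38 to -0.21). Their signs were opposite, but the interval of replicate 1 reaches 0. The pairs differed from each other by more than counting error (difference -0.38, interval -0.50 to -0.26). The blocked fit gave -0.11 ± 0.21 with a 95% interval of -0.52 to 0.31, and SLC1A5 was not called (adjusted p = 0.960, edgeR with replicate block).

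SLC1A4, the alanine and serine exchanger, gave 331 and 320 counts in the VEC and VHL libraries of replicate 1 (14.3 and 17.2 CPM), and 254 and 269 counts in those of replicate 2 (5.57 and 6.59 CPM). VHL was the higher library of each pair, but the replicates of a group lay further apart than the groups. The pair changes were 0.26 and 0.24, and the blocked fit gave 0.25 ± 0.29 (95% interval -0.31 to 0.81, adjusted p = 0.876, edgeR). The interval spans 0, and whether these libraries could detect a change of that size was not tested.

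**Figure D3:**
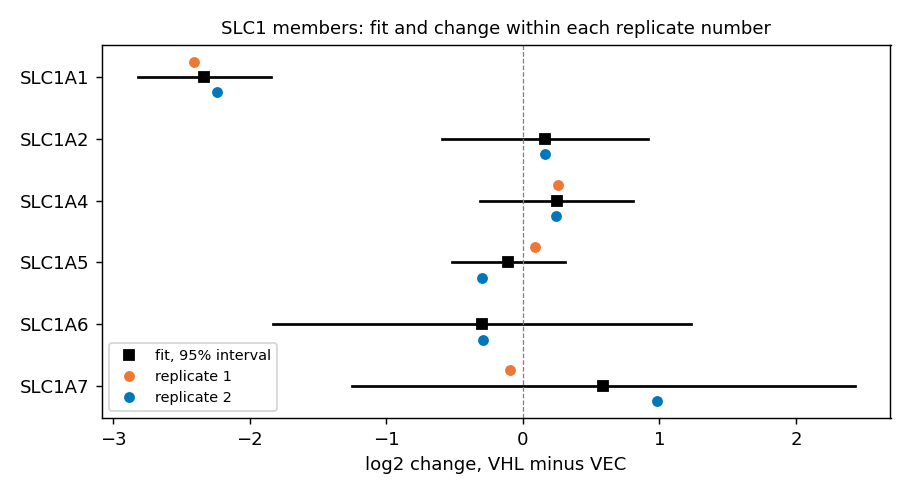
Log2 change of VHL minus VEC for the 6 members tested, with the blocked fit and its 95% interval (squares and lines) and the change in replicate 1 (orange) and replicate 2 (blue). The interval of SLC1A1, -2.82 to -1.84, is the one that does not reach 0, and SLC1A2 and SLC1A6 have no point for replicate 1, where both libraries had 0 counts.

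SLC1A2 and SLC1A6 had reads in replicate 2 alone. SLC1A2, the main glutamate carrier of astrocytes, had 0 counts in both replicate 1 libraries, which allows up to 0.130 CPM in VEC and 0.161 CPM in VHL at a floor of 3 counts. Replicate 2 gave 946 counts for VEC and 950 for VHL, or 20.7 and 23.3 CPM. These CPM were near that of SLC1A1 in the VEC library of that pair, without correction for transcript length. SLC1A6 had 0 counts in both libraries of replicate 1, whereas replicate 2 gave 69 for VEC and 50 for VHL (1.51 and 1.22 CPM). For both genes the replicate number, not the construct, separated libraries with reads from those without. Neither was called (adjusted p = 0.970 and 0.973, edgeR with replicate block), and their changes of 0.16 (95% interval -0.59 to 0.92) and -0.30 (-1.83 to 1.23) rest on replicate 2.

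Many other genes had the pattern of SLC1A2. A count of 0 in both replicate 1 libraries and of at least 946 in both replicate 2 libraries was found for 638 genes, of which 317 were pseudogenes and 218 protein-coding. The reverse held for 5 genes. Of 8185 genes with at least 1000 counts in both replicate 2 libraries, 22 shared both counts exactly with another gene. In replicate 1 it was 8 of 3832, a similar share. How reads that map to several places were counted is not given in the sources used here, and its part in the SLC1A2 reads was not tested. Astrocyte markers (6 genes) summed to 100 and 81.5 CPM in VEC and VHL of replicate 1, nearly all from ALDH1L1. In replicate 2 they summed to 32.5 and 22.2 CPM, of which ALDH1L1 gave 26.1 and 15.9 and GFAP 4.60 and 3.13. The defining marker GFAP had 15 and 4 counts in replicate 1 and 210 and 128 in replicate 2.

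SLC1A7 and SLC1A3 were at the limit of detection. SLC1A7 gave 8 counts (VEC) and 6 (VHL) in replicate 1 and 2 (VEC) and 6 (VHL) in replicate 2, and no more than 0.346 CPM in a library. Its blocked estimate of 0.59 had a 95% interval of -1.25 to 2.43 (adjusted p = 0.942, edgeR). SLC1A3, the other glutamate carrier of astrocytes, had 0 counts in all 4 libraries. A count of 0 allows up to 0.0658 CPM for VEC and 0.0734 CPM for VHL in the deeper replicate 2.

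The make-up of the family's reads shifted with VHL in both pairs. SLC1A1 gave 32.6% of all SLC1 reads in VEC of replicate 1 (exact 95% interval 31.1 to 34.1) and 7.76% in VHL (6.75 to 8.88). In replicate 2 its share was 22.6% in VEC (21.4 to 23.7) and 6.29% in VHL (5.51 to 7.15). The share of SLC1A5 went from 58.9% to 79.3% in replicate 1 and from 52.9% to 57.2% in replicate 2, where SLC1A2 held 18.3% and 27.2%. Shares are parts of 1 whole, so a fall of SLC1A1 raises those of the other members by itself. In replicate 2 the share of SLC1A5 rose while its level went from 60.1 to 49.0 CPM. Summed over the family, the VEC and VHL levels were 172 and 135 CPM in replicate 1, and 114 and 85.6 CPM in replicate 2. By reads, SLC1A1 stood second to SLC1A5 in both VEC libraries and below SLC1A4 in both VHL libraries. In VHL of replicate 2, SLC1A4 (7.69%, 6.83 to 8.63) and SLC1A1 had overlapping intervals. Transcript lengths were not used here, so reads of different members are not molecules per cell, whereas the shift of 1 gene against another does not depend on length.

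**Figure D4:**
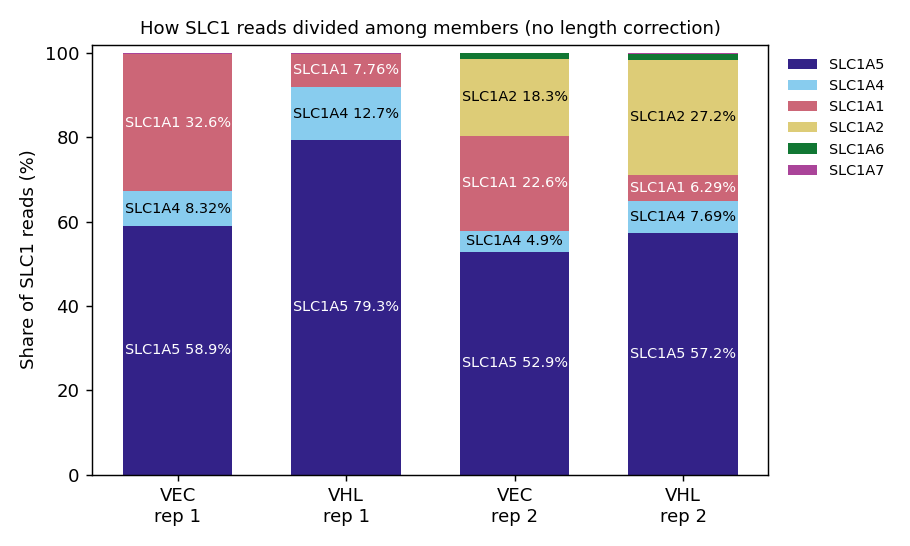
Share of all SLC1 reads (vertical axis, percent) taken by each member in the 4 libraries, without length correction. The part of SLC1A1 shrinks from 32.6% to 7.76% in replicate 1 and from 22.6% to 6.29% in replicate 2.

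Ratios within a library, which no scaling between libraries can alter, gave the same order. There were 0.553 reads of SLC1A1 for each read of SLC1A5 in VEC of replicate 1 and 0.0979 in VHL, a log2 shift of -2.50 (95% interval -2.74 to -2.26, counting error only). In replicate 2 the ratios were 0.426 and 0.110, a shift of -1.95 (-2.19 to -1.73). Against SLC1A4 the shifts were -2.67 (-2.99 to -2.36) and -2.49 (-2.82 to -2.16). SLC1A1 therefore fell relative to both neutral amino acid exchangers in each pair by more than counting error. SLC1A4 moved against SLC1A5 by 0.18 (-0.07 to 0.42) and 0.54 (0.27 to 0.80).

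Other carriers and carrier subunits, listed for glutamate, aspartate, cystine, glutamine or neutral amino acids, gave 1 call in each direction. Of 26 such genes, 21 were tested, and 1 was called higher and 1 lower in VHL, where 0.749% of all genes tested were called higher and 2.35% lower. Their median log2 change was -0.13, against -0.03 over all genes tested. SLC6A15, a carrier of branched-chain amino acids and proline, rose from 104 to 161 counts and from 87 to 272 (1.37 ± 0.36, adjusted p = 0.00713, edgeR with replicate block). SLC6A19, the main neutral amino acid carrier of the proximal tubule brush border, fell from 107 to 27 counts and from 154 to 43 (-1.68 ± 0.45, adjusted p = 0.0109, edgeR with replicate block). Both had few reads, and without the block neither was called (adjusted p = 0.999991). DESeq2 gave neither an adjusted p, with log2 changes of 1.34 and -1.72. The 2 carriers it called were SLC7A11 and SLC17A5, a lysosomal exporter of sialic acid, at -0.44 (adjusted p = 0.0237, and 0.468 in edgeR). SLC7A11, which exports glutamate in exchange for cystine, was the higher in VHL of both pairs, at 207 against 290 and 162 against 315 CPM. It missed the threshold in edgeR (0.72 ± 0.24, adjusted p = 0.0710) and passed with DESeq2 size factors (adjusted p = 0.0107) and in DESeq2 (adjusted p = 0.000786). The mitochondrial aspartate and glutamate carriers SLC25A12 and SLC25A13 were not called, at 0.46 ± 0.21 and -0.09 ± 0.24 (adjusted p = 0.312 and 0.977, edgeR).

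Enzymes of glutamate and aspartate metabolism and of linked steps, such as glutathione synthesis, had 3 calls among 26 tested of 27. Of these calls, 1 was higher and 2 were lower in VHL. The list had a median of -0.02, beside 3.10% called and a median of -0.03 over all genes tested. GSS, glutathione synthetase, fell in both pairs, 119 to 78.3 CPM in the first and 28.5 to 13.3 in the other (-0.84 ± 0.21, adjusted p = 0.00536, edgeR with replicate block). GPT, a cytosolic alanine aminotransferase that works on glutamate, fell from 307 to 131 counts and from 170 to 45 (-1.30 ± 0.35, adjusted p = 0.0109, edgeR with replicate block). PSAT1, the aminotransferase of serine synthesis, rose in both, 104 to 168 CPM and 77.4 to 134 (0.74 ± 0.22, adjusted p = 0.0324, edgeR with replicate block). DESeq2 called GSS (adjusted p = 0.0159) and PSAT1 (adjusted p = 3.67e-16) and gave GPT no adjusted p. It also called ALDH18A1, an enzyme of proline synthesis from glutamate, at -0.44 (adjusted p = 3.97e-05, and 0.440 in edgeR). The aspartate aminotransferases GOT1 and GOT2 were at -0.15 ± 0.22 and 0.27 ± 0.21, and neither was called. No enzyme was called without the block (adjusted p = 0.999991, edgeR).

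Proteins that bind SLC1 carriers or are known to act on their amount were all tested (14 genes, median 0.04), with 1 call, beside the 3.10% of all genes. HIF1A, the alpha subunit of HIF-1, rose in both pairs, 112 to 213 CPM and 41.5 to 100 (1.10 ± 0.22, adjusted p = 0.000103, edgeR with replicate block, and 0.999991 without). EPAS1, which encodes the alpha subunit of HIF-2, was at 0.40 ± 0.29 and was not called (adjusted p = 0.679, edgeR). ARL6IP5, a binding partner of EAAT3, was at 0.10 ± 0.22, and ARHGEF11, a partner of EAAT4, was at 0.07 ± 0.23. PDZK1, a scaffold of the brush border, was at -0.50 ± 0.23 (adjusted p = 0.277, edgeR), and was called in DESeq2 alone (adjusted p = 6.53e-06).

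**Figure D5:**
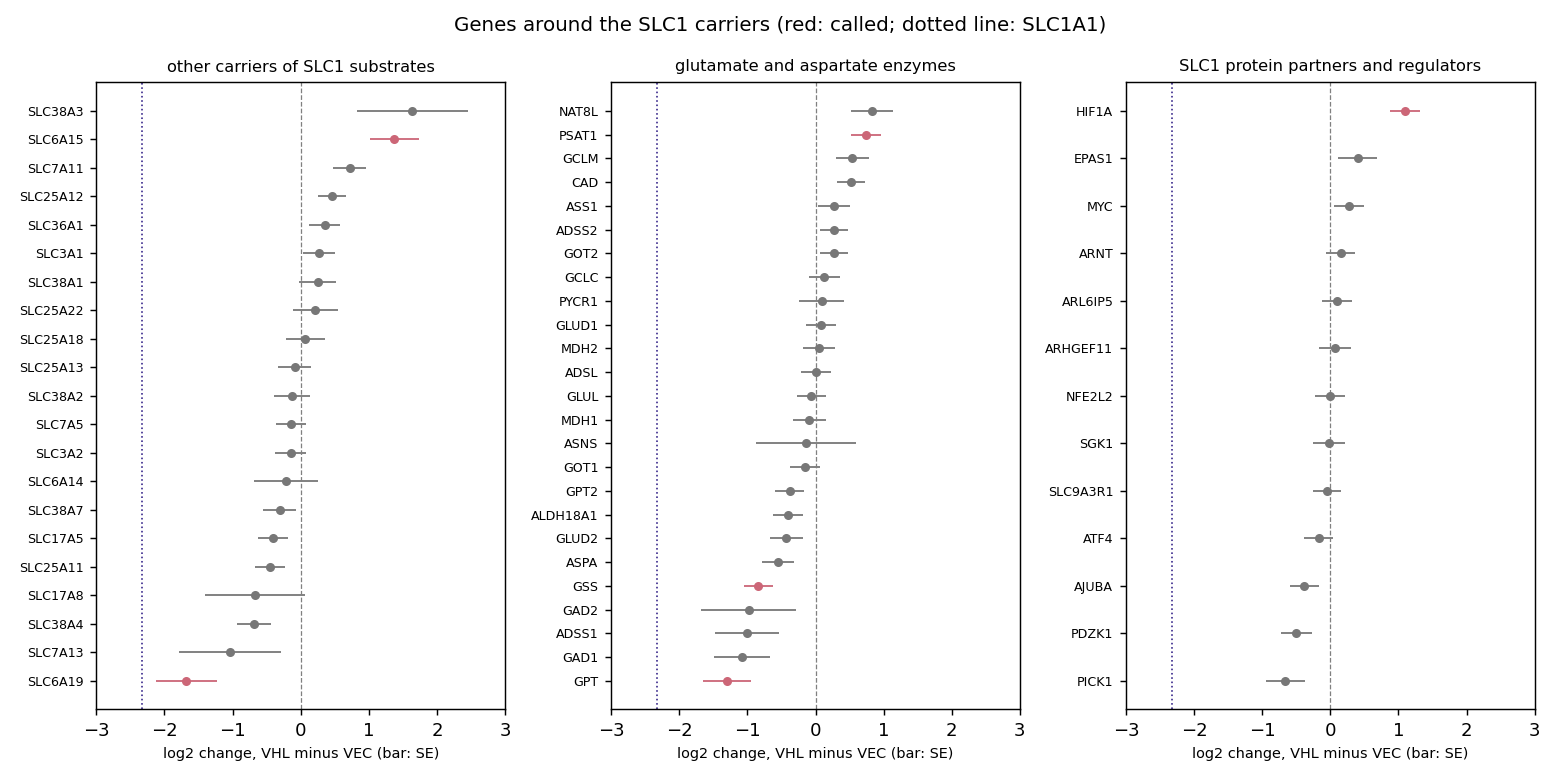
Log2 change of VHL minus VEC with its SE in the blocked fit for tested genes of 3 lists, other carriers, enzymes, and partners and regulators (2 uncalled genes are not drawn), with called genes in red and the value of SLC1A1 as a dotted line. No gene drawn reaches the SLC1A1 value of -2.33, and 6 of the points are red.

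Markers of kidney epithelium were checked beside SLC1A1. Summed over 10 genes, the VEC and VHL levels were 3389 and 2056 CPM in replicate 1 and 1595 and 1107 CPM in replicate 2, most of it from LRP2. CDH6, a kidney cadherin, was the higher in VHL of each pair, at 203 and 266 CPM and at 144 and 232, and was not called (0.54 ± 0.23, adjusted p = 0.260, edgeR). PAX8, a defining factor of the renal epithelial lineage, was present in every library, between 40.8 and 75.9 CPM, and was not called (adjusted p = 0.943, edgeR). KRT19 had 0 counts in all 4. Of the receptors of proximal tubule endocytosis, CUBN also fell, 359 to 70.4 CPM in replicate 1 and 153 to 52.6 in replicate 2 (-1.94 ± 0.24, adjusted p = 1.99e-13, edgeR with replicate block, and 0.999991 without). LRP2, at 2617 and 1514 CPM in replicate 1 and 1051 and 646 in replicate 2, was not called (-0.75 ± 0.30, adjusted p = 0.201, edgeR). CUBN and SLC1A1 are genes of the same tubule segment, and what these markers contribute to the SLC1A1 result was not tested. Endothelial markers (6 genes) summed to at most 0.214 CPM with 4 at 0 in all libraries, and fibroblast markers to at most 1.84 CPM. Neuron markers (6 genes) had higher sums in VHL, at 75.6 and 126 CPM in replicate 1 and 81.9 and 145 in replicate 2, with SNAP25 and SLC32A1 at 0 in all libraries. Nearly all of these reads were from MAP2, a microtubule protein, which rose by 0.80 ± 0.22 (adjusted p = 0.0144, edgeR with replicate block, and 0.999991 without). What it contributes to the SLC1 results was not tested. Blood cell markers summed to between 11.8 and 44.0 CPM, nearly all from CD68, with CD3E at 0 in all libraries.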

How the data were processed

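The values were the authors' deposited raw counts per gene symbol, from sorted hg19 alignments per the file headers. featureCounts and HOMER are named, without role, in the submitters' processing notes. Aligner, annotation, strand and the counting of reads with several positions are not given in the sources used here.

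Counts were analysed with edgeR 4.0.16 in R 4.3.3: filterByExpr, TMM, glmQLFit and glmQLFTest (two-sided, about group with the replicate number as a block), adjusted over all 24417 genes tested, with 0.05 as threshold. The block leaves 1 residual degree of freedom and was used because the members are compared within each replicate number. The spread of a gene was estimated largely from all genes together, so its SE hardly reflects how far its own pairs differed. PDZK1 (pair changes -0.50 and -0.51) and VHL (1.98 and 0.77) both had an SE of 0.23. Deviations from group means correlated at 0.982 between same-numbered libraries (21673 genes). Pair changes used a prior count of 2. The fits were also run on simulated counts, drawn with the replicate difference built in and a spread set near that of the blocked fit. Such counts cannot judge the choice of block, and no result here rests on them. DESeq2 1.42.0, other scalings, other filters and left-out libraries were alternatives.

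Members, lists and design were chosen with earlier results of these data known. Named genes were all 7 members, list genes called in the fit (up to 6 per list), and the 5 genes nearest to SLC1A1; the others named, such as SLC7A11, GOT1 and CUBN, were chosen after their values were seen. Of the symbols, 97.8% matched RefSeq (GRCh38.p14), used for gene classes and promoter sequences. The H3K27ac tables were not used, since their regions carry no positions to assign them to a gene. Some list genes are not reported here by name.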

Additional observations from a re-analysis of the deposited data

How the results depend on the processing

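The calls depended on the replicate block. With the replicate block 756 genes were called, and without it 0 (22 at an unadjusted p under 0.05, edgeR). The members called went from 1 to 0, the other carriers from 2 to 0, the enzymes from 3 to 0, the partners and regulators from 1 to 0 and the check genes from 6 to 0. SLC1A1 stood at -2.36 without the block. DESeq2's Wald test with the block called 1215 genes, 391 of them among the 756, and 2 partners and regulators. The filter of at least 10 counts in every library left 13424 genes and called 1171, with 537 of the 756. In the 6 other fits with the block, SLC1A1 was called in each, between -2.38 and -2.34. Leaving out 1 library at a time, with group as the only term because the block then leaves no residual degree of freedom, called 0 genes and 0 members. Without VEC replicate 1, VHL replicate 1, VEC replicate 2 and VHL replicate 2 in turn, SLC1A1 stood at -1.69, -2.92, -2.78 and -1.97, SLC1A4 at 1.09, -0.59, -0.23 and 0.78, and SLC1A5 at 0.38, -0.72, -0.34 and 0.39, so SLC1A4 and SLC1A5 changed sign in some. SLC1A7 had a value in 1 of these fits, -0.37, and -0.09 and 0.98 within the pairs. SLC1A2 stood at -0.83, 1.17, 11.34 and -11.30 and SLC1A6 at -1.29, 0.69, 7.11 and -7.54, fitted values without meaning as folds, because an unpaired library at 0 then decides them. The lone library of a group is assumed to vary like the others. With protein-coding totals as library sizes the median of all genes moved to -0.123 and SLC1A2 to -0.02. No alternative by gene length was run.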
